A study of Saccharomyces cerevisiae with 6 samples.

Results

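The wild-type strain (Y117) of a budding yeast study was examined by itself, to describe which genes this strain transcribes to high and low levels during regrowth in rich medium. Its members are the 3 arrays labelled as wild type, of 6 arrays in the series, and on them the 5656 genes that are named alone by at least 1 probe set. The other 3 arrays come from strain Y118, which carries the H2B K123R substitution (arginine in place of the lysine that is monoubiquitinated), and no comparison with them was made. Cells from early stationary phase were diluted to an optical density of 0.3 in 150 ml of YPD, the standard glucose-containing rich medium, in 500-ml flasks, and were shaken at 30 degrees for 7 h until the density reached 2. The labels describe triplicate cultures per strain, without saying whether they came from separate starters, so the SD over the 3 values below is a spread between flasks. Mating type, ploidy and the genotype at loci other than H2B are not given in the labels used here.

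Total RNA of each culture was converted to biotin-labelled cRNA and hybridised to 1 Affymetrix S98 array. The deposited signal of a probe set is a linear intensity on a scale where the trimmed mean of each array was 500.5. Array medians were 133, 131 and 132 in cultures 1, 2 and 3, and log2 signals correlated at 0.992 to 0.995 between them. The 99th percentile was 10691 in culture 1, against 11395 and 11307 in cultures 2 and 3. Actin control probes gave a 3'/5' ratio of 1.504 to 1.542. The control for TBP, the TATA-binding protein, gave a higher ratio of 2.56 to 2.69, so the bias toward the 3' end differed between transcripts. A probe set's signal depends on its probes' affinity as well as on RNA abundance. The size of that limit was read from the 147 genes that carry exactly 2 probe sets: the brighter was at least 2-fold above the dimmer in all cultures for 77 of them, 52.4%, with a median difference of 2.16-fold. Over all 315 genes with more than 1 probe set, the brightest and the dimmest met the same limit in 72.4%. Ranks and ratios between genes below therefore describe signal, and small differences between genes are not read.

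Yeast growing on glucose ferments it to ethanol even in air. Signalling through protein kinase A and TOR then favours ribosome production, while glucose repression keeps genes for other carbon sources, respiration-linked metabolism and gluconeogenesis low. Meiosis and spore formation are confined to starved diploid cells, and each haploid mating type transcribes its own set of pheromone and receptor genes. Many yeast genes are present as paralogue pairs left by an ancient whole-genome duplication.

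Gene signals had a median of 239 and ran from 0.0730 to 23683. The lowest 10% of genes lay below 35.5 and the highest 10% above 1725. A ceiling for absent targets was set at 11.98, the highest signal of any of 4 mouse control probe sets on any wild-type array. A one-sided limma test called 7703 of 9275 probe sets, 83.1%, above that ceiling at a Benjamini-Hochberg adjusted p below 0.05, and by the same test 5407 of 5656 genes, 95.6%, were above it. Signal above the mouse controls is not proof of a transcript, since cross-hybridisation was not measured. The antisense CreX-3 control, another probe set without an intended target, read 128 to 152.

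The signal was concentrated in few genes. The 30 brightest held 11.1% of the summed signal and the 100 brightest 26.7%, and 65 genes exceeded 10000. Ribosomal proteins supplied 15 of the 30 and glycolytic and fermentative enzymes 7. The brightest was RPS21B, a protein of the small ribosomal subunit, at 22552, 23747 and 24751 in cultures 1 to 3 (23683 ± 1101, SD, n = 3). Its paralogue RPS21A read 21769, 23685 and 22906. RPS22A followed at 21768, 23355 and 22044. The probe sets of RPS21A and RPS21B are of a type with incomplete probe selection, and whether each also reads its paralogue was not tested.

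CCW12, a mannoprotein of the cell wall, read 20396, 23302 and 21818 (21839 ± 1453, n = 3). SSA1, a cytosolic Hsp70 chaperone, read 20132, 22440 and 22884, and its paralogue SSA2 read 16822, 20009 and 18984. Whether the SSA1 probe set also reads SSA2 was not tested. ADH1, the alcohol dehydrogenase that makes ethanol, had 17869 ± 635 (SD, n = 3), and TDH3, the main glyceraldehyde-3-phosphate dehydrogenase, had 17746 ± 1269. PGK1 (phosphoglycerate kinase) reached 16317 ± 673 and ENO2 (enolase) 15693 ± 821. PMP2, a small regulator of the plasma membrane proton pump, stood at 16024 ± 672, and ARF1, a GTPase of Golgi transport, at 15271 ± 786. YDR524C-B, known in the annotation by its systematic name, read 20273 ± 1146. All 30 had their lowest value in culture 1, and 25 had their highest in culture 2. Their coefficients of variation were 1.96% to 8.74%, so the order of close neighbours in this rank does not exceed the spread between cultures.

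**Figure D1:**
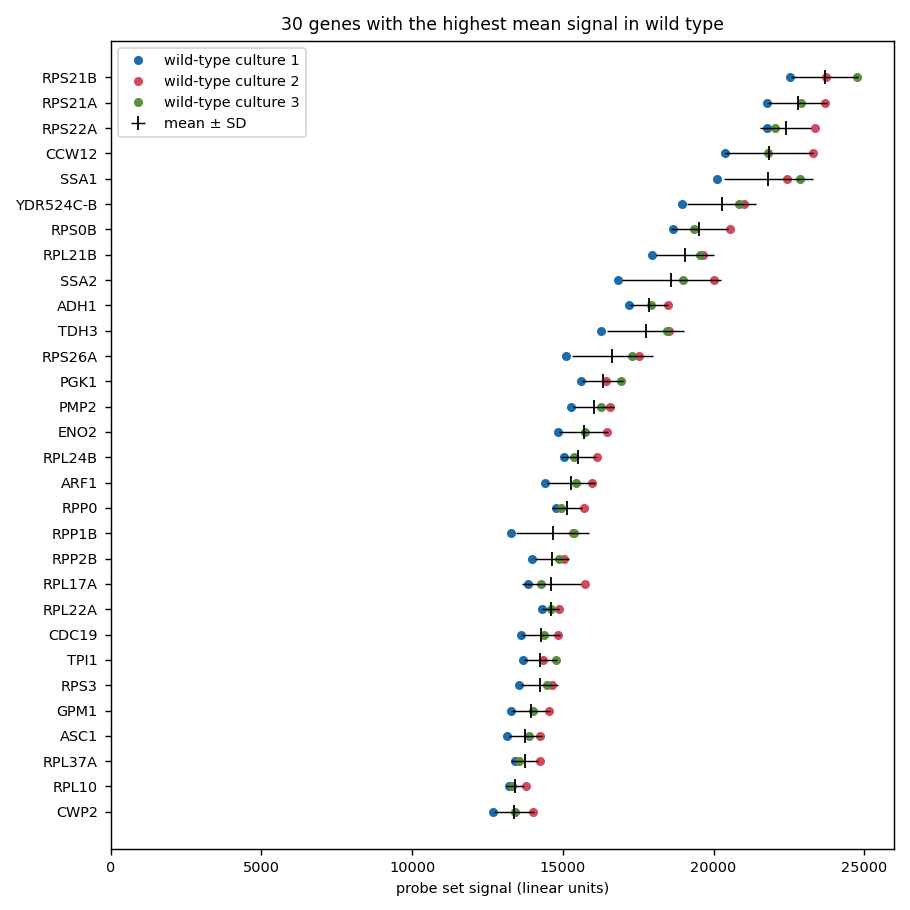
Signal of the 30 genes with the highest mean in wild type, in linear units; points are the 3 cultures and the bars are the mean ± SD (n = 3). The values run from 13370 for CWP2 to 23683 for RPS21B, and culture 1 is the lowest point for every gene.

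Genes were grouped in 77 lists by function, and 48 of the lists had a median above the 239 of all genes. Counts per list are given beside the share of all genes that meet the same limit, with no test of the lists. In all, 10% of genes are in the brightest 10% by definition, and 14.1% read 50 or below.

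Cytosolic ribosomal proteins were the brightest list by function, and the other lists of protein synthesis lay lower. The 80 cytosolic ribosomal protein genes measured had a median of 8212, with culture medians of 8236, 8310 and 8332, and 77 of the 80 were in the brightest 10%. The dimmest were RPL15B at 997 ± 14.5 and RPL9A at 1292 ± 56.6 (SD, n = 3). Large subunit genes had a median of 8444 and small subunit genes 7980. Translation elongation factors had a median of 4977 over 7 genes. Among them YEF3, the elongation factor that fungi need in addition to the common ones, read 13289 ± 453, and HYP2, which encodes eIF5A, read 12580 ± 458. All 18 cytosolic aminoacyl-tRNA synthetases exceeded the median of all genes and 15 of 18 were in the brightest 10%, from FRS1 (phenylalanine) at 9652 ± 226 down to GLN4 (glutamine) at 491 ± 46.9. Initiation and termination factors had a median of 1494. Ribosome biogenesis genes, which process and assemble ribosomal RNA and proteins, had a lower median of 668 over 71 genes and a wide range, from UTP4 at 122 ± 3.54 to the snoRNP protein gene NOP58 at 9430 ± 752. The dimmest of 4 NOP58 probe sets read 83.2, so its place at the top rests on the choice of probe set. Mitochondrial ribosomal proteins had a median of 264 over 66 genes, and 0 of them reached the brightest 10%.

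Glycolysis and fermentation followed the cytosolic ribosomal proteins, with a median of 6035 over 24 genes, 17 of them in the brightest 10%. Every step from aldolase to pyruvate kinase had a gene above 10000: FBA1 (aldolase) at 11880 ± 224, TPI1 (triose phosphate isomerase) at 14258 ± 542, GPM1 (phosphoglycerate mutase) at 13951 ± 638 and CDC19 (pyruvate kinase) at 14274 ± 632. At the entry, HXK2, the hexokinase used on glucose, read 4595, 5031 and 4911, and GLK1 (glucokinase) 1370, 1569 and 1709. HXK1, the hexokinase that glucose represses, read 478, 526 and 606. PFK1 and PFK2, the subunits of phosphofructokinase, had 5398 ± 212 and 6651 ± 17.6. PDC1, the main pyruvate decarboxylase, had 10658 ± 340, PDC5 had 916 ± 18.3 and PDC6 had 86.5 ± 16.5.

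Glucose uptake genes divided widely, with a list median of 100.9 over 13 transporters and sensors. The median was 60.5 when plain probe sets alone were used. HXT3, a low-affinity carrier, read 8290, 7523 and 6897, and HXT1, another low-affinity carrier, read 3458, 3377 and 3138. The higher-affinity HXT2 read 2848 ± 367 and HXT4 322 ± 18.1. HXT6 and HXT7, nearly identical carriers of high affinity, gave 2006 ± 131 and 1892 ± 153 on family-type probe sets that may read either gene. HXT5 read 31.5 ± 3.71 and HXT8 36.7 ± 6.65. HXT10 at 13.3 ± 2.55 and HXT14 at 5.77 ± 3.25 were not called above the ceiling. The glucose sensors were low, at 100.9 ± 10.3 for RGT2 and 37.5 ± 4.76 for SNF3.

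Respiratory genes were mostly above the median of all genes. The tricarboxylic acid cycle had a median of 882 over 20 genes, 18 of them above the median of all genes, and was led by IDH2 (isocitrate dehydrogenase) at 3591 ± 116. CIT3, a minor citrate synthase, was at 11.98 ± 0.997. The nuclear-encoded respiratory chain and ATP synthase had a median of 1058 over 34 genes, with 30 of them above the median of all genes. Of 8 mitochondrially encoded genes, OLI1 (ATP synthase subunit 9) and COX1 (cytochrome oxidase subunit 1) exceeded 1000, at 4229 ± 1644 and 3071 ± 307, and the other 6 read 81.7 or less. These are the brightest of several probe sets, and the dimmest for the same genes read 2.82 for OLI1 and 51.4 for COX1, so the contrast rests on the choice of probe set. VAR1, the ribosomal protein encoded in the mitochondrion, was at 0.430 ± 0.430.

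The cell surface was also bright, with a median of 3268 for 30 cell wall genes, 19 of them in the brightest 10%. GAS4 and GAS2, members of the glucanosyltransferase family that act in spore wall formation, were the dimmest at 21.6 ± 6.11 and 39.7 ± 3.89. CIS3, a wall protein, read 10317 ± 370. TIR1, a wall mannoprotein known for induction by cold and low oxygen, read 8622, 8080 and 7768 and was the brightest of 19 anaerobic and hypoxic genes. DAN1, another hypoxic wall gene, read 27.7 ± 2.76. Vacuolar ATPase genes had a median of 2901 over 14 genes, and 12 of them were in the brightest 10%. PMA1, the plasma membrane proton pump, had 7114 ± 497. Ergosterol synthesis genes had a median of 1912 over 24 genes, all of them above the median of all genes.

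Several biosynthetic lists lay above the median of all genes in this medium, which supplies amino acids and bases. Branched-chain amino acid synthesis had a median of 2346 over 11 genes, with ILV5 at 5643 ± 220. Pyrimidine synthesis had 1821 over 9 genes and purine synthesis 1484 over 14. Lower medians were found for lysine synthesis at 660, for arginine and ornithine synthesis at 361, and for sulfur assimilation and methionine at 222. Phosphate genes included the high-affinity transporter PHO84 at 9737, 10141 and 9443 and the acid phosphatase PHO5 at 3131, 2417 and 2426, both products of the phosphate starvation pathway. PHO89, the sodium-coupled transporter of that pathway, read 183 ± 37.5. Genes under nitrogen catabolite repression had a median of 89.1 over 24 genes, of which GLN1 (glutamine synthetase) at 3676 ± 292 and CAR2 (ornithine transaminase) at 3010 ± 121 were the brightest and DAL80 at 13.7 ± 3.88 the dimmest.

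Stress and stationary phase lists did not stand out from the median of all genes. General stress genes had a median of 324 over 41 genes, 6 of them at or below 50. The list was uneven: HOR7, a small membrane protein, read 8941 ± 922 and DDR48, a DNA damage responsive gene, 7647 ± 104, whereas XBP1, a repressor induced by starvation, read 10.2 ± 2.16. HSP12, a membrane-stabilising stress protein, was at 774 ± 46.6 and HSP26, a small heat shock protein, at 253 ± 18.1. CTT1, the cytosolic catalase, was at 54.8 ± 10.4. Stationary phase and quiescence genes had a median of 207 over 16 genes.

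**Figure D2:**
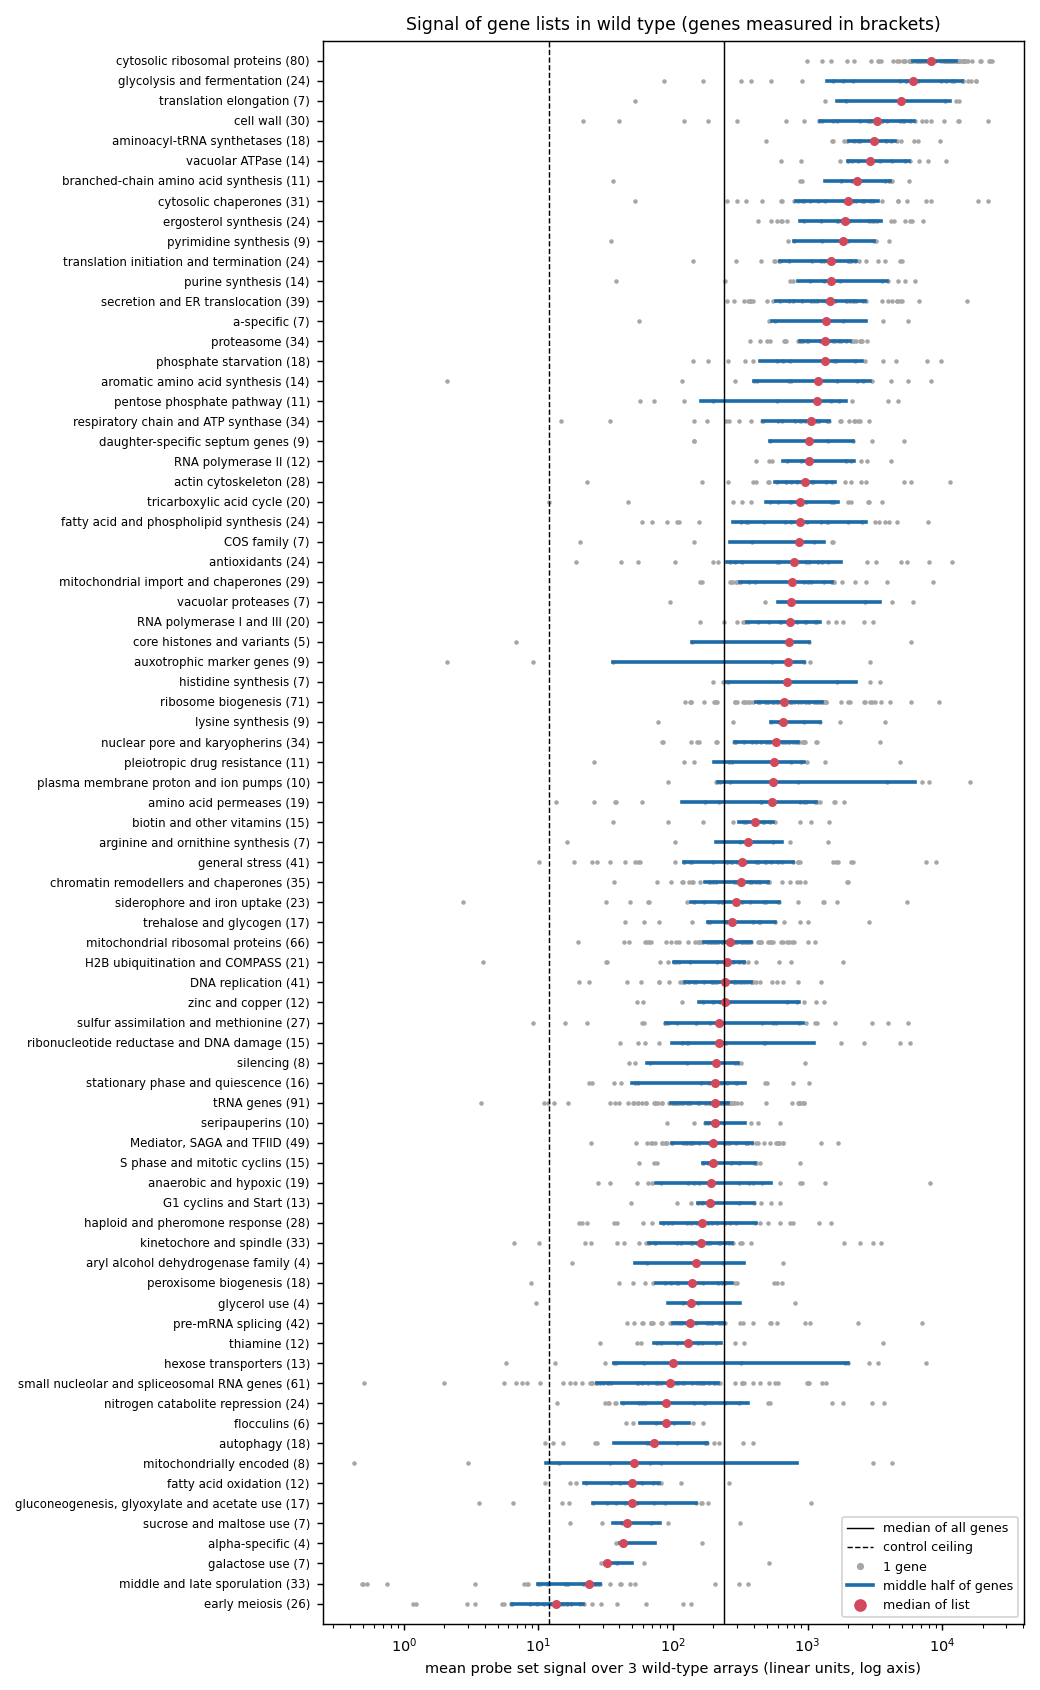
Mean signal of genes in 78 lists, the 77 by function and the mitochondrially encoded genes, on a log axis in linear signal units; grey points are genes, blue bars the range between the quartiles of each list, red points list medians, and the vertical lines the median of all genes (239) and the control ceiling (11.98). Cytosolic ribosomal proteins lie at the top with a median of 8212 and early meiosis genes at the bottom with 13.6.

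Lists with low medians included meiosis, spore formation, alpha-specific genes and the use of several carbon sources other than glucose. Of all genes, 186, or 3.29%, had a mean at or below the ceiling, and 0 lists had 50% or more of their genes there. With the limit at 50, a level that 14.1% of all genes did not exceed, 7 lists had at least 50% of their genes at or under it. These were early meiosis, middle and late sporulation, galactose use, sucrose and maltose use, fatty acid oxidation, gluconeogenesis with glyoxylate and acetate use, and alpha-specific genes. The mitochondrially encoded genes, which are not among the 77 lists, had 4 of 8 at or below 50. Glycerol use, another list for an alternative carbon source, had a median of 137 with 1 of 4 genes at or below 50.

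Early meiosis was lowest, with a median of 13.6 over 26 genes and culture medians of 12.9, 15.6 and 13.3. In that list 12 genes were at or below the ceiling, 23 were at or below 50, and 12 were called above the ceiling by limma. SPO11, which cuts DNA to start meiotic recombination, read 1.15, 1.77 and 0.757. MND1, which acts in strand exchange, read 2.66, 0.547 and 0.331. The brightest were REC107, a recombination initiation factor, at 136 ± 3.61 and IME1, the master inducer of meiosis, at 119 ± 9.55. IME2, the kinase gene that Ime1 activates, was at 17.6 ± 1.43. Middle and late sporulation had a median of 23.6 over 33 genes, with 11 at or below the ceiling and 29 at or below 50. NDT80, the activator of middle genes, read 26.4, 27.7 and 24.6. CDA1, a chitin deacetylase of the spore wall, read 0.563, 0.409 and 0.515, and SPS22, a gene of spore wall assembly, read 0.308, 0.817 and 0.349. The 2 genes of the list above the median of all genes, SPO12 at 362 ± 27.6 and the cyclin gene CLB1 at 308 ± 12.7, also act in mitosis.

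Galactose genes read close together except for their repressor. GAL1, the galactokinase, read 32.9, 24.5 and 29.8. GAL10 had 32.1 ± 4.62, GAL7 had 38.5 ± 7.12, the permease GAL2 had 60.5 ± 5.51 and the activator GAL4 had 32.2 ± 7.02. GAL80, which holds Gal4 inactive, read 585, 468 and 491. Among sucrose and maltose genes the median was 45.9, and invertase (SUC2) was the brightest at 317 ± 9.35, on a shared-type probe set. The dimmest of the 3 SUC2 probe sets read 0.281, so that place rests on the choice of probe set. Gluconeogenic FBP1 read 29.1, 33.8 and 34.2, PCK1 read 76.8, 108 and 78.7, and the glyoxylate enzyme genes ICL1 and MLS1 had 160 ± 2.22 and 54.5 ± 11.3. JEN1, the lactate permease, and CAT8, the activator of gluconeogenic genes, were in the control range at 3.64 ± 1.98 and 6.47 ± 2.24. ADH2, the alcohol dehydrogenase that consumes ethanol, stood apart within its list at 1059, 1050 and 1063, and whether its probe set also reads ADH1 was not tested. Fatty acid oxidation genes had a median of 49.7 over 12, from the activator gene OAF1 at 261 ± 1.55 down to DCI1 at 11.2 ± 2.26. FOX2, the multifunctional enzyme of that pathway, read 116, 33.6 and 97.4, so culture 2 lay apart from the others.

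Of the mating-type genes, those specific to a cells were bright and those specific to alpha cells were dim. MFA2 and MFA1, which encode a-factor, read 5538 ± 112 and 3612 ± 456, STE2, the receptor for alpha-factor, read 1391, 1382 and 1322, and BAR1, a secreted protease acting on alpha-factor, read 1846 ± 78.2. STE6, the exporter of a-factor, had 573 ± 39.9, the agglutinin subunit AGA2 had 519 ± 10.8 and ASG7 had 56.1 ± 1.75. On the alpha side, MF(ALPHA)1 and MF(ALPHA)2, which encode alpha-factor, read 44.4 ± 5.39 and 40.8 ± 1.16, STE3, the receptor for a-factor, read 42.0, 36.4 and 35.5, and the agglutinin SAG1 had 163 ± 12.2. All 4 alpha-specific genes were below the median of all genes, and 6 of 7 a-specific genes were above it. The haploid and pheromone response list had a median of 166 over 28 genes, with 11 above the median of all genes and 11 at or below 100, a level that 26.2% of all genes did not exceed. The 7 markers of haploid cells in it read 1493 ± 176 for STE4, 266 ± 11.8 for GPA1, 128 ± 20.6 for STE18, 214 ± 16.04 for STE5, 409 ± 31.1 for FUS3, 774 ± 24.4 for RME1 and 512 ± 21.3 for HO. These are the brightest probe sets, and the dimmest for FUS3, also of the plain type, read 0.841. For MFA1 the dimmer of 2 probe sets read 344. FUS1, which is induced when cells respond to pheromone, had 84.7 ± 8.28.

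**Figure D3:**
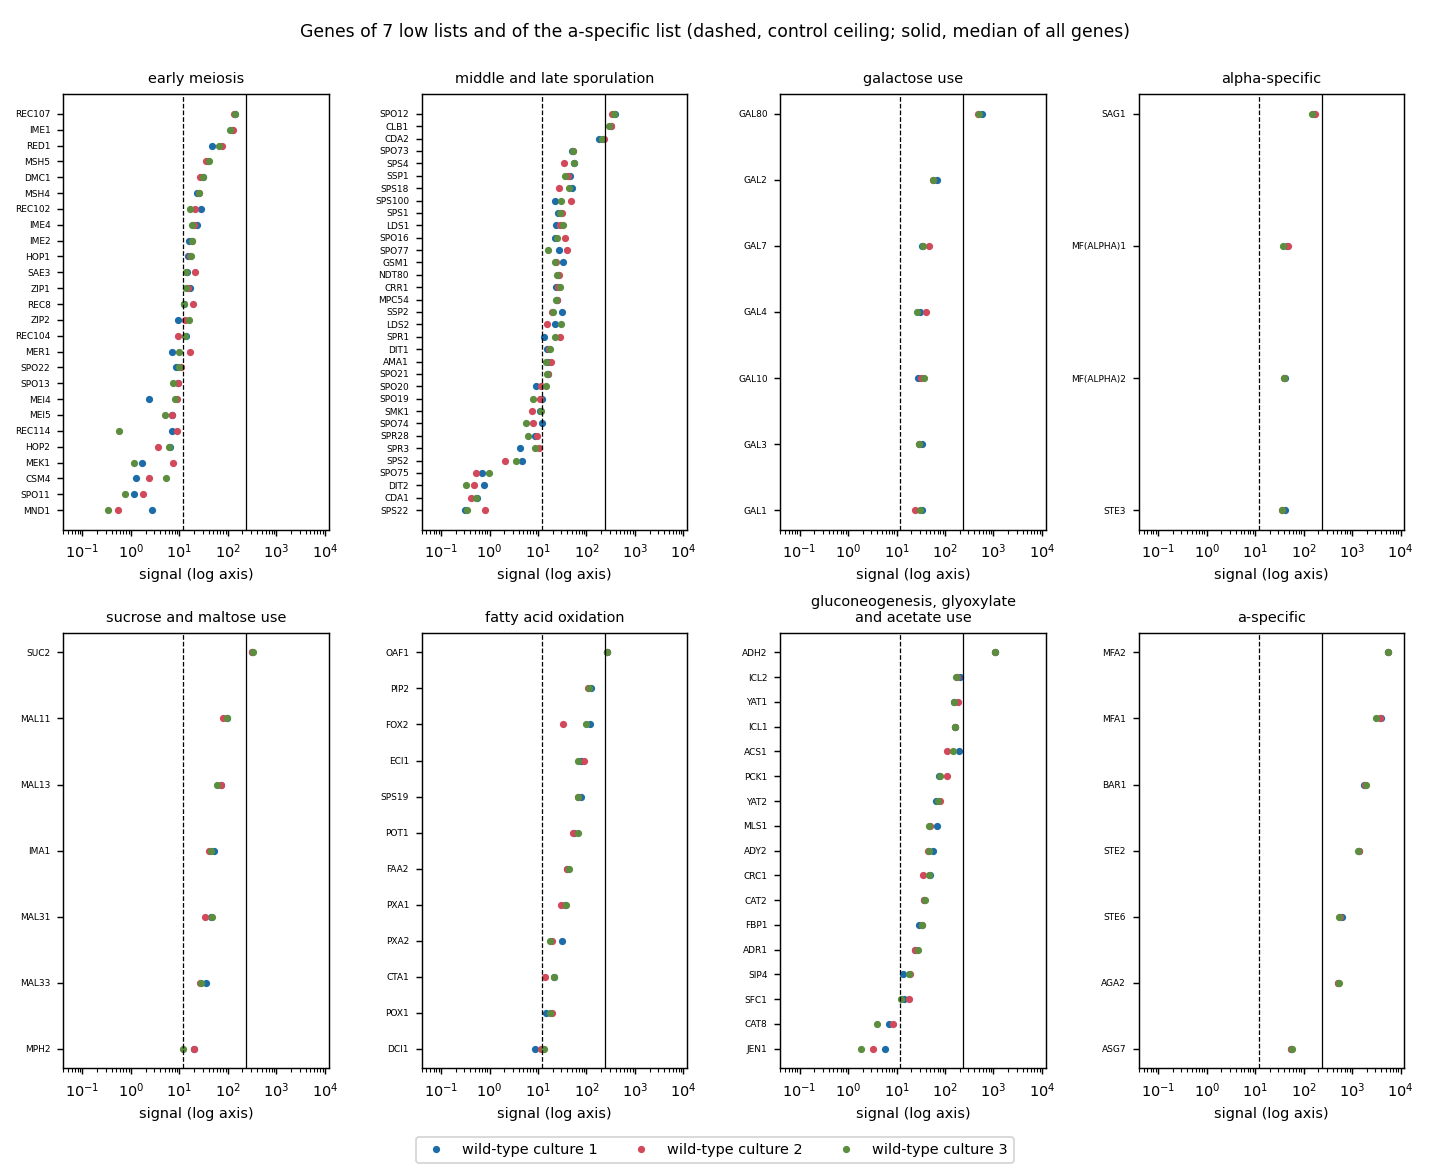
Signal of the genes of 7 low lists and of the a-specific list on log axes, with 1 point per culture; the dashed line is the control ceiling (11.98) and the solid line the median of all genes (239). SPO11, MND1, CDA1 and SPS22 lie far left of the ceiling in all cultures, and MFA2 and STE2 lie right of the median.

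Single genes with low signal included a histone gene and common marker genes. HTB1, which encodes histone H2B, read 5423, 6046 and 6039. HTB2, the other H2B gene, read 5.18, 11.3 and 3.82, below the ceiling in every culture. The histone variant genes HTZ1 and CSE4 read 1027 ± 21.6 and 138 ± 10.4, HHO1, which encodes the linker histone, read 731 ± 21.4, and the other histone genes are not analysed here. Among genes often used as auxotrophic markers, TRP1 read 1.89, 2.07 and 2.29, MET17 read 11.6, 4.49 and 11.1, and LEU2, which was called above the ceiling, read 30.4, 38.7 and 39.4. By comparison URA3 had 717 ± 28.6, HIS3 had 2899 ± 80.7, LYS2 had 935 ± 64.5 and ADE2 had 739 ± 23.6. The dimmest of 3 LEU2 probe sets read 7.21, under the ceiling, so the LEU2 call rests on the choice of probe set. For HIS3 the dimmer of 2 probe sets read 752. SET2, the histone H3 lysine 36 methyltransferase gene, read 4.54, 3.90 and 3.13. Whether these genes are deleted in the strain, silent, or poorly matched by their probes was not tested. A reading in the control range does not show that a transcript is missing, since it was also found for NUF2 (11.3, 10.2 and 8.68), SPC24 (6.55 ± 3.65) and BRN1 (4.74 ± 2.93), which encode essential kinetochore and condensin proteins.

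The 186 genes in the control range were not spread evenly over the annotation. Genes known by a systematic name alone made up 56 of them, or 12.4% of the 450 such genes, against 2.50% of the 5206 genes with a given name. Genes of the meiosis and sporulation lists made up another 23 of the 186, out of 59 measured. The 91 tRNA genes had a median of 206, with 35 of them above the median of all genes. The 61 small nucleolar and spliceosomal RNA genes had a median of 95.7, with 14 above that of all genes, and SNR77 was highest at 1361 ± 102 and SNR190 lowest at 0.506 ± 0.132. How fully the cRNA labelling captures these RNA classes was not tested, so their signals may not be comparable with those of protein-coding genes.

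Among the genes named alone by a probe set, signal was lower near chromosome ends. Counting protein-coding genes of the R64 assembly inwards, the first 5 from either end had a median of 75.4 over the 67 measured, the next 5 a median of 112 over 134, and those from 11 to 20 a median of 234 over 293. Genes farther in had a median of 250 over 4973. A mean of 50 or less was found for 34.3% of the first 5 and for 12.7% of the genes farther in. Genes read only by probe sets that name several genes are left out of these counts. Such probe sets had a median of 501 over the whole array, against 210 for those that name 1 gene. Whether end genes left out in this way are brighter was not tested. The exception among the outermost genes was IMD2, an IMP dehydrogenase gene of guanine nucleotide synthesis, which read 5322, 4508 and 4311 and alone among the 67 was in the brightest 10%. Its probe set is of the family type, its dimmest probe set read 951, and which of the IMD copies it reports was not tested. Neighbouring genes were weakly alike in level: across genes, Pearson's r of log2 signal was 0.10 for 1305 divergent pairs, 0.09 for 2440 pairs on the same strand and 0.02 for 1355 convergent pairs, all from the same 3 arrays.

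Paralogue pairs were compared by the signal of each copy. Of 145 pairs listed, 134 had both genes measured, and in 87 of these, 64.9%, the brighter gene was at least 2-fold above the dimmer on the log2(signal + 16) scale with the same order in all 3 cultures. The background is high: 2 probe sets of the same gene met the same rule in 52.4% of 147 genes, and in 69.3% of 199 genes when the 2 were of the plain type. A 10-fold gap was found in 25 pairs, 18.7%, against 12 of the 147 genes, 8.16%, and 21.1% of the 199 with plain probe sets. The share of all 134 pairs past either limit thus lies between those 2 backgrounds at 2-fold and at 10-fold. For the 105 pairs with both genes on plain probe sets the shares were 70.5% and 21.9%, close to the plain background. A single pair's gap cannot be told apart from a difference in probe affinity.

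In several pairs of carbon metabolism, though not in every one, the isozyme known as the main form was the brighter. PDC1 exceeded PDC6 by 6.71 ± 0.20 on the log2(signal + 16) scale (SD, n = 3, as for all pairs), and CDC19 exceeded PYK2, the pyruvate kinase gene that glucose represses, by 6.29 ± 0.10. ADH1 exceeded ADH2 by 4.06 ± 0.06, HXK2 exceeded HXK1 by 3.14 ± 0.14 and TDH3 exceeded TDH1 by 3.01 ± 0.11. ENO2 and ENO1 were close, with a difference of 0.36 ± 0.03, as were HXT6 and HXT7 with 0.09 ± 0.03. The probe sets of ENO1 and ENO2 are of a type with incomplete probe selection, and whether each also reads its paralogue was not tested. The order was the other way for phosphoglucomutase, where PGM1 exceeded PGM2 by 1.80 ± 0.07. All 8 fermentation pairs and all 4 pentose phosphate pairs were at least 2-fold apart. Probe sets of the same gene met that limit in 52.4% of genes, or in 69.3% when both were plain. ADH1 and PDC1 each stand in more than 1 of the 8 fermentation pairs, so these pairs are not independent. In the pentose phosphate pathway TKL1, a transketolase, exceeded TKL2 by 5.49 ± 0.07 and GND1 exceeded GND2, both phosphogluconate dehydrogenases, by 5.09 ± 0.07.

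Outside carbon metabolism, YEF3 exceeded HEF3 by 7.63 ± 0.27, with HEF3 at 45.7, 69.7 and 41.8. TSA1, a cytosolic peroxiredoxin, exceeded TSA2 by 6.64 ± 0.07, and URA5, an orotate phosphoribosyltransferase, exceeded URA10 by 6.32 ± 0.18. HYP2 exceeded its hypoxic copy ANB1 by 3.22 ± 0.39, and ANB1 read 1750 in culture 1 against 1202 and 1124 in the others. PMA1 exceeded PMA2 by 4.96 ± 0.01, and VPH1, the vacuolar isoform of a proton pump subunit, exceeded the Golgi and endosomal isoform STV1 by 3.11 ± 0.01. HTB2 and NDE2, an external NADH dehydrogenase gene at 14.7 ± 8.10, were the dimmer genes not called above the ceiling, and no fold is given for HTB1 over HTB2 or NDE1 over NDE2. In 8 pairs the order changed between cultures. Among them BMH2 and BMH1, both 14-3-3 proteins, differed by 0.25 ± 0.35, with BMH1 at 2130, 3445 and 2605, and MYO4 and MYO2, both type V myosins, differed by 0.03 ± 0.39.

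Ribosomal protein pairs were closer together. Of 31 pairs 12 were at least 2-fold apart, 38.7%, and 0 were 10-fold apart, against 75 of 103 other pairs, 72.8%. The median gap was 1.70-fold against 3.98-fold. The widest were RPL22A over RPL22B at 9.67-fold (9.06 to 10.2 over the cultures), RPL15A over RPL15B at 6.32-fold, RPS26A over RPS26B at 4.95-fold, RPL7A over RPL7B at 3.93-fold and RPL36A over RPL36B at 3.43-fold. The closest were RPS25A and RPS25B at 1.01-fold, RPS21A and RPS21B at 1.04-fold and RPL17A and RPL17B at 1.09-fold. These folds use the brightest probe set of each gene, and some rest on that choice. With the dimmest probe set of each gene, RPL7A would lie below RPL7B, which then read 1012. RPS10B, paired with RPS10A, read 3421 on its brighter probe set and 29.4 on its dimmer. The count of 0 pairs 10-fold apart therefore also rests on the choice of probe set. Ribosomal protein copies often have nearly the same coding sequence, and whether their probe sets read both copies was not tested.

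**Figure D4:**
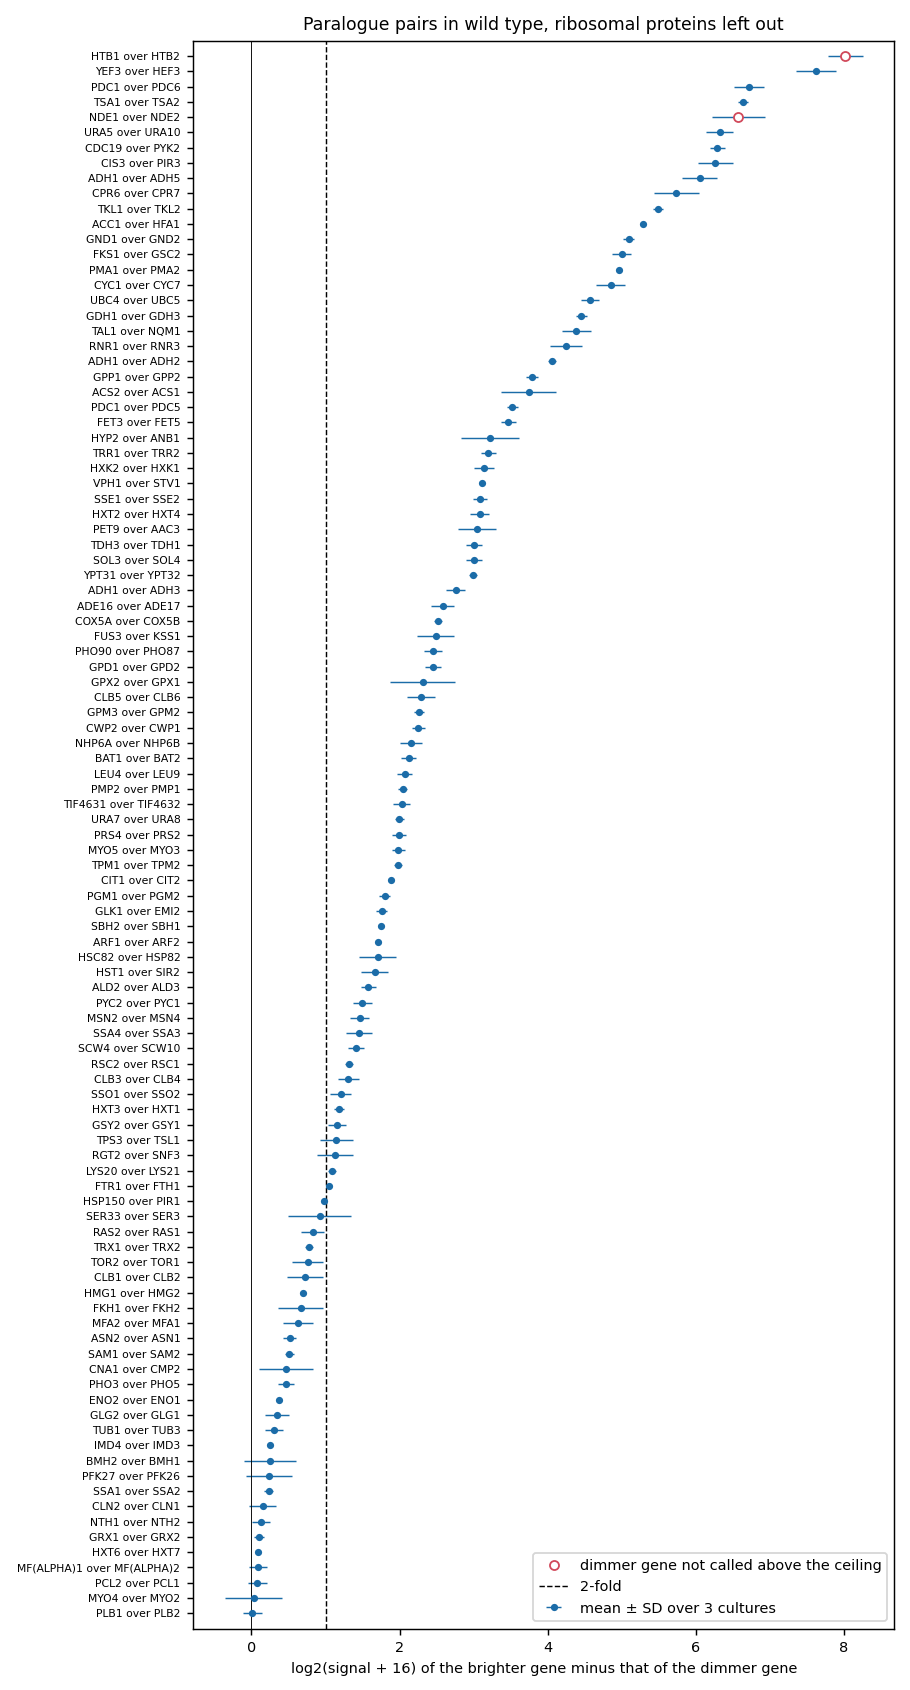
Difference in log2(signal + 16) between the brighter and the dimmer gene of 103 paralogue pairs other than ribosomal proteins; points are means and bars SD over the 3 cultures, and the dashed line marks 2-fold. Of these pairs 75 are at least 2-fold apart, and open points mark HTB1 over HTB2 and NDE1 over NDE2, counted among the 75, whose dimmer gene was not called above the ceiling, so that the plotted gap is not a measured size.

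The 3 cultures agreed closely. Among the 2828 genes above the median signal the median SD of log2(signal + 16) was 0.0824, and it fell with level from 0.126 in the dimmest 1414 genes to 0.0722 in the brightest 1414. The steadiest plain probe sets among these genes were those of GSR1, which read 3344, 3346 and 3348, YDL086W at 1137, 1139 and 1141, VOA1, a vacuolar ATPase assembly factor, at 2430, 2428 and 2436, TMA19, a ribosome-associated protein, at 12819, 12783 and 12772, and BUD21, a ribosome biogenesis factor, at 359, 358 and 357.

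Among plain probe sets of genes above the median signal, the least steady was that of SRO9, which encodes an RNA-binding protein and read 96.1, 666 and 183 (SD 1.33 on the log2 scale). SNR13, a small nucleolar RNA, read 559, 1632 and 1638. BRE5, a ubiquitin protease cofactor, read 157, 448 and 294, and BTN2, a stress-induced sorting chaperone, read 414, 386 and 869. OLI1 read 2452, 5695 and 4539. The RNA helicase gene DHH1 read 395, 869 and 685, RSC8 (chromatin remodelling) 256, 545 and 431, BBC1 (actin patch) 272, 516 and 448, CKA1 (casein kinase 2) 211, 405 and 308, and TFC4 (RNA polymerase III initiation) 202, 205 and 358. Of these 10, culture 1 was lowest and culture 2 highest for SRO9, BRE5, OLI1, DHH1, RSC8, BBC1 and CKA1. Among genes above the median, SNR13 in culture 1 was at least 2-fold below both others, SRO9, RDN25-1 and RDN5-3 in culture 2 were at least 2-fold above, and so was BTN2 in culture 3. The ribosomal RNA genes RDN25-1 and RDN5-3, whose probe sets are not of the plain type, read 320, 3411 and 640 (SD 1.72 on the log2 scale), and 1151, 3252 and 1568 (SD 0.76). A control probe set for 25S ribosomal RNA moved the same way, at 472, 4376 and 955 in cultures 1 to 3, and its part in the other differences of culture 2 was not tested.

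Small shared shifts remained between cultures. For each gene the log2(signal + 16) of a culture was set against the mean of the other 2, which gave a median over all genes of 0.05 in culture 1, -0.04 in culture 2 and -0.01 in culture 3. Ribosome biogenesis genes stood at 0.18 in culture 1, -0.02 in culture 2 and -0.17 in culture 3, and culture 1 was highest for 58 of the 71. Culture 1 was also highest for 1570 of the 2828 genes above the median signal. After quantile normalization of the arrays the shifts of ribosome biogenesis genes became 0.15, -0.02 and -0.15. General stress genes ran the other way, at -0.08, -0.02 and 0.10, and stayed at -0.09, -0.02 and 0.10 after quantile normalization. Transfer RNA genes stood at -0.12, 0.14 and 0.02. Cytosolic ribosomal proteins at -0.06 and glycolytic genes at -0.10 were low in culture 1, and after quantile normalization these shifts were 0.00 and -0.02. With 1 array per culture, a difference between flasks cannot be told apart from a difference between arrays, and no test was made.

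**Figure D5:**
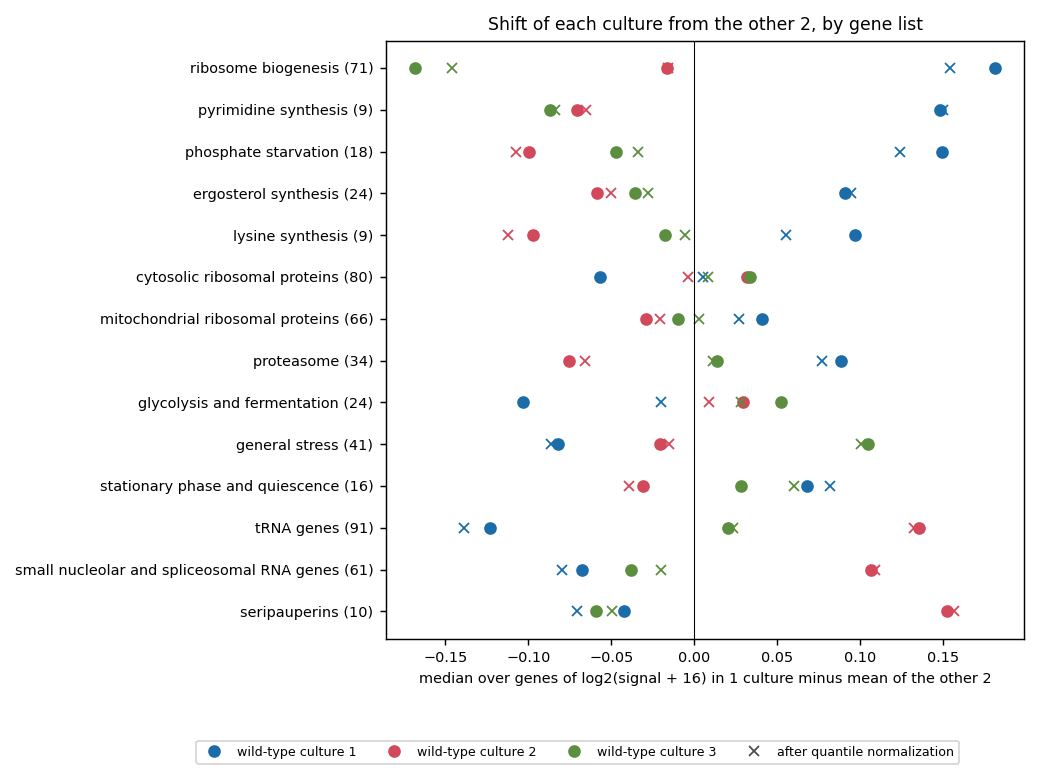
Median shift of each culture from the mean of the other 2 in log2(signal + 16), for 14 gene lists with the number of genes in brackets; circles are deposited values and crosses are after quantile normalization. Ribosome biogenesis genes run from 0.18 in culture 1 to -0.17 in culture 3, and the shifts of ribosomal proteins and glycolysis shrink after quantile normalization.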

How the data were processed

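RNA of 3 wild-type cultures was hybridised to 1 Affymetrix S98 array each, per the labels' protocols. The deposited values are probe set intensity on a linear scale, scaled by the authors so that the mean after trimming 2% at each end was 500.5. No source used here gives the software that summarized the probes. Of 9335 probe sets, 60 were controls. The platform annotation, checked against the R64 gene table with 0 symbols changed, paired 6504 of the other 9275 with 1 gene, 328 with several and 2443 with none. Each of the 5656 genes took its probe set with the highest mean over the wild-type arrays; 315 had more than 1. The array build is not given, so R64 served for names and gene order. The number of arrays limits the precision.

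Signals were used as log2(signal + 16). Probe sets were tested against the ceiling of 11.98 with limma 3.58.1 in R 4.3.3 (intercept fit, empirical Bayes with a variance trend, one-sided, Benjamini-Hochberg over 9275). On simulated data of 9275 probe sets it called 98% of those 1.5-fold above the ceiling on that scale, 100% of those 2-fold above and 4.9% of those at it. Lists and pairs were described by counts and medians with Python 3.11.15. Members, lists and pairs were chosen with earlier results of these data known. Genes named are the 30 brightest, the 2 brightest and 2 dimmest of a list (all in lists of up to 12), pairs, the 10 least and 5 most steady, and cell type markers; others were named after their values were seen, namely FBA1, PFK1, PFK2, HXT5, HXT8, FBP1, PCK1, ICL1, MLS1, CTT1, FUS1, IMD2, BRN1 and the ribosomal RNA genes. Other ceilings, pseudocounts, scalings and probe set rules were tried.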

Additional observations from a re-analysis of the deposited data

Results flagged for a closer look

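Signal was also present in probe sets that the annotation pairs with no gene and that the comparisons above do not use. Of 2443 such probe sets, 1325 (54.2%) were called above the control ceiling by limma, and 161 had a mean above 1000. The brightest 5, given by their ID, were 9183_s_at at 14058, 3913_s_at at 13338, 3772_f_at at 12063, 3915_s_at at 11797 and 3982_at at 11671. Of these, 3913_s_at differed most between cultures, at 10022, 15902 and 14089. What these probe sets read is not identified by the annotation used here.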

How the results depend on the processing

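No paired analysis was possible because the wild-type arrays were not compared with another group. The ceiling set the counts of dim genes: 797 genes lay at or below 50 and 1482 at or below 100, against 186 at 11.98, and 4867 probe sets were called above 100 against 7703 above 11.98. With bacterial controls added, an alternative chosen after seeing the data, the ceiling was 21.6 and 320 genes lay at or under it. Lists with at least 50% of their genes at or under the ceiling numbered 7 at 50, 12 at 100, 1 with bacterial controls added and 1 (early meiosis) with the mean of a gene's probe sets. Leaving out each culture gave 0 to 1 such lists (1 without culture 3, early meiosis), 7632 to 7678 probe sets above the ceiling, 176 to 186 genes within it, 46 to 48 lists above the median of all genes and 87 to 88 pairs at least 2-fold apart. The pairs numbered 77 with plain probe sets alone, 83 with a pseudocount of 64 and 90 with the mean of a gene's probe sets. The median spread was 0.0966 over all genes, and 0.0526 to 0.0798 with a culture left out, lowest without culture 1. Over the alternatives, 4 list medians changed side of the median of all genes: DNA replication in 2, zinc and copper in 1, and ribonucleotide reductase and DNA damage in 1. For the 87 pairs at least 2-fold apart, the brighter gene stayed the same in all 686 recomputed values. These pairs were chosen for the same order in all 3 cultures. Leaving out a culture or changing the pseudocount could therefore hardly reverse it, and the count is not evidence that the order is sound. Dim signals are limited by cross-hybridisation, and levels of different genes by probe affinity.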
